A study of Mus musculus with 3 samples.

Results

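Keratinocytes of the basal epidermal layer outside the hair follicle that were not dividing were sought by transcript level in single cells of mouse dorsal skin. A cell was a member when it held at least 40 unique molecular identifiers (UMIs, each counting 1 captured transcript) of Krt5 and Krt14 summed per 10000 of its UMIs. It also had to hold under 20 per 10000 of Krt1 and Krt10, under 2 per 10000 of Lhx2, Sox9 and Sfrp1, fewer than 2 UMIs of Mki67 and Top2a, and no UMI of Ptprc. The members were thus chosen by measured transcript levels. The rule took 1882 of 24858 filtered cells (at least 300 genes and at most 20% mitochondrial UMIs), with 1083 from normal, 271 from IMQ and 528 from IMQ+celastrol skin. The markers in IMQ went against the label of basal cells, as set out below, so the members are called Krt5/Krt14-high, Krt1/Krt10-low keratinocytes.

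The study, whose title names celastrol, the receptor gene Lrp1 and psoriasis, profiled 3' transcripts of skin cells from C57BL/6 mice aged 7 weeks. Controls (normal) had received glycerin. The IMQ group had received imiquimod, a ligand of Toll-like receptor 7 that induces psoriasis-like skin inflammation in mice. The IMQ+celastrol group had received celastrol, a plant triterpenoid, together with imiquimod. How many mice each library held, and the dose, route and days of treatment, are not stated in the labels. There was 1 library per group, so no difference carries a test or a p-value. Intervals are 95% and cover counting error alone, leaving out the spread between cells, animals and libraries. Treatment cannot be told apart from library or animal.

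Basal keratinocytes make Krt5 and Krt14 and are tied to the basement membrane by hemidesmosomes, in which the integrin α6β4 and collagen XVII bind laminin-332 outside the cell and plectin and dystonin inside it. When they leave the basement membrane they lose these contacts and switch to Krt1 and Krt10. In psoriasis and in wounds the cells above the basal layer instead carry the keratins Krt6, Krt16 and Krt17 and the calprotectin genes S100a8 and S100a9.

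The genes of the rule describe how the cells were chosen and support nothing. Summed over members of the normal, IMQ and IMQ+celastrol libraries, an order kept throughout, Krt5 stood at 7054, 3549 and 7737 CPM (counts per 1000000 UMIs). Krt14 stood at 10777, 17193 and 19127 CPM. Members in the 10 per 10000 just inside the Krt5 and Krt14 limit numbered 43, 10 and 5, against 51, 11 and 9 cells just outside. Inside the Krt1 and Krt10 limit 67, 39 and 48 members lay between 10 and 20 per 10000, and 31, 24 and 30 cells lay between 20 and 30. The median Col17a1 level was 10.1 and 10.3 per 10000 in the normal cells on either side of that limit and 0 on both sides in IMQ. In IMQ+celastrol it was 6.76 inside and 0.538 outside.

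Members made up 10.4% of the filtered cells in normal skin (exact binomial interval 9.81 to 10.99), 3.38% in IMQ (3.0 to 3.80) and 8.22% in IMQ+celastrol (7.56 to 8.92). As a share of the cells past the Krt5 and Krt14 limit they were 42.4%, 18.3% and 27.1%. The limit on Mki67 and Top2a, set in UMIs whatever the depth, removed 18.7%, 55.5% and 42.6% of the cells that reached it. Of the 232, 334 and 396 cells that failed it alone and met the rest of the rule, 1, 80 and 74 were under 1 per 10000. With limits per 10000 in place of UMIs the IMQ share was 4.47% and the IMQ+celastrol share 9.42%.

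Basal markers outside the rule were then checked against the label. The integrin subunit gene Itga6 had medians of 3.66, 0.348 and 4.39 per 10000. Col17a1, for collagen XVII, had medians of 9.79, 0 and 10.3 per 10000, with upper quartiles of 13.5, 1.962 and 14.3. Krt15, a keratin of basal cells, had medians of 38.5, 0 and 4.22 per 10000. Most normal and IMQ+celastrol members thus carried these markers. Most IMQ members held no UMI of Krt15, and most held none of Col17a1. Itga6 was seen in 168 of the 271 IMQ members (62.0%), though at a low level.

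For Krt15 and Col17a1 the same was seen at equal depth. After each cell was thinned to 2000 UMIs, which left out 31, 25 and 13 shallower members, Krt15 was seen in 89.2, 3.25 and 51.5% of 1052, 246 and 515 members. For Col17a1 the shares were 75.7, 17.5 and 75.1%. Endothelial cells, which should lack both genes and had median depths of 4104, 7574 and 7155 UMIs before thinning, gave 3.76, 0 and 0% for Krt15 and 2.69, 0 and 0.746% for Col17a1, over 186, 227 and 134 cells. Itga6 marked members less clearly. After thinning it was seen in 53.9, 20.3 and 53.8% of members and in 38.7, 29.5 and 31.3% of endothelial cells. Without thinning, Krt15 was seen in 92.98, 12.2 and 76.5% and Col17a1 in 88.0, 44.6 and 88.6% of members.

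Genes of differentiation and stress that the rule did not use were high in the IMQ members. They do not by themselves tell basal from other cells, since IMQ cells with hemidesmosome transcripts also carried them, as given below. Krtdap, expressed as keratinocytes differentiate, had medians of 0, 35.2 and 3.35 per 10000. The stress keratin genes Krt16 and Krt6a had medians of 0, 47.1 and 4.34 and of 0, 47.6 and 4.42 per 10000. For S100a8, which encodes one subunit of calprotectin, the medians were 0, 131 and 0.567 per 10000. At least 20 per 10000 of S100a8 was held by 2, 226 and 59 members.

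**Figure D1:**
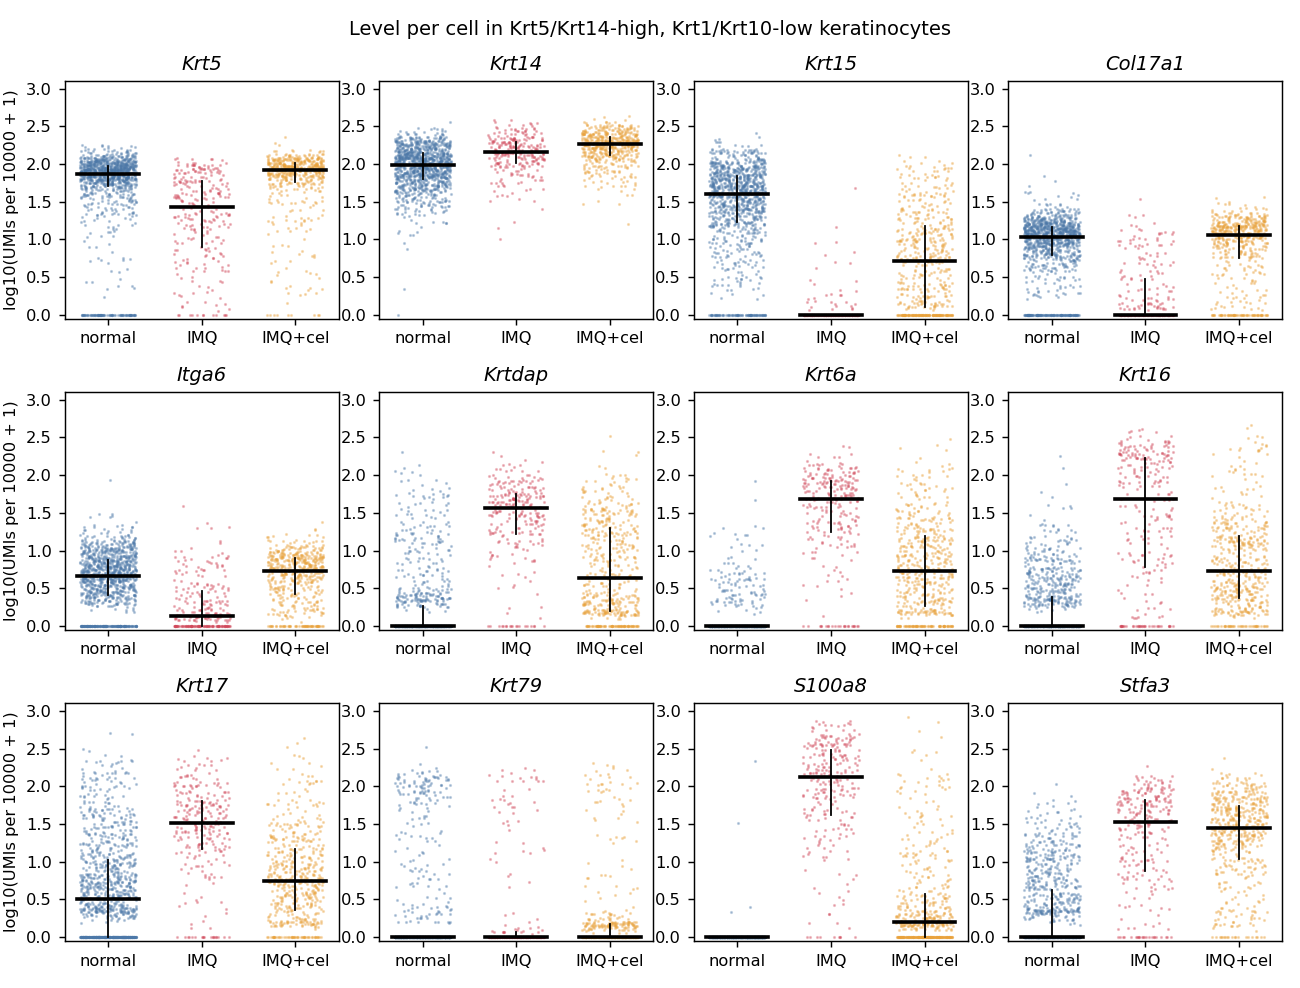
Level per cell, as log10 of UMIs per 10000 plus 1, of 12 genes in the members of each library; each point is 1 cell, the thick bar is the median and the thin line joins the quartiles. Krt15, Col17a1 and Itga6 lie near 0 in most of the 271 IMQ cells, where Krtdap, Krt6a, Krt16 and S100a8 lie high.

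Members were therefore also split by the sum of Col17a1 and Itga6 at 5 per 10000, a value chosen after these levels had been seen. The Col17a1/Itga6-high cells, called high cells from here, numbered 904 in normal (83.5% of members, 81.1 to 85.6), 59 in IMQ (21.8%, 17.01 to 27.2) and 416 in IMQ+celastrol (78.8%, 75.05 to 82.2). Within 1 per 10000 of the split lay 40, 12 and 11 cells. Among the others, the low cells, 111 of 179 in normal, 36 of 212 in IMQ and 42 of 112 in IMQ+celastrol held at least 20 per 10000 of Krt79, a keratin of the upper hair follicle. Those with less Krt79 but at least 20 per 10000 of Krt6a and Krt16 numbered 2, 149 and 48, or 0.185%, 55.0% and 9.09% of all members. Neither applied to 66, 27 and 22 low cells. So the low cells were mostly Krt79-high in normal skin and mostly Krt6a/Krt16-high in IMQ.

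Stress keratins and S100a8 were not limited to the low cells. In IMQ, at least 20 per 10000 of S100a8 was held by 48 of 59 high cells and 178 of 212 low cells. Of the high cells, 18 of 904 in normal (1.99%), 38 of 59 in IMQ (64.4%) and 129 of 416 in IMQ+celastrol (31.0%) held at least 20 per 10000 of Krt6a and Krt16. No UMI of Krt15 was seen in 17 of these normal cells (1.88%), 36 of the IMQ cells (61.0%) and 54 of the IMQ+celastrol cells (13.0%), though the IMQ cells were the deepest. The counts of most lists are given for these high cells beside all members. In IMQ they are 59 cells.

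**Figure D2:**
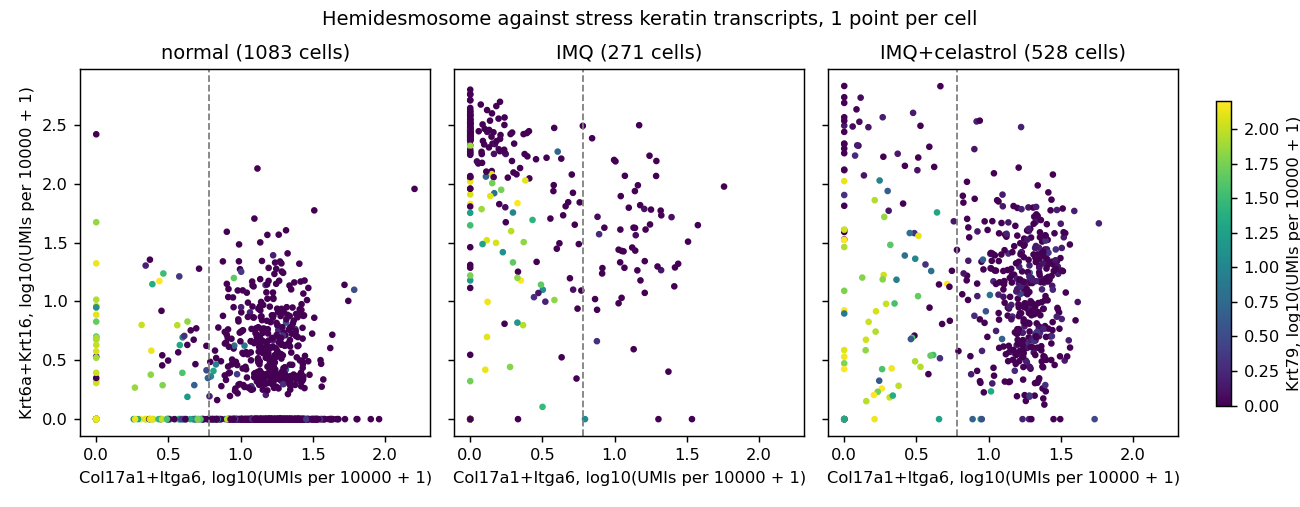
Summed Krt6a and Krt16 against summed Col17a1 and Itga6 in each member, as log10 of UMIs per 10000 plus 1, with the colour giving Krt79 on the same scale; the dashed line is the split at 5 per 10000. Normal and IMQ+celastrol cells lie mostly to the right of the line (904 of 1083 and 416 of 528), IMQ cells mostly to its left and high (212 of 271 left of it).

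Depth differed between libraries. Members held medians of 7824, 36901 and 21804 UMIs, or 1.31, 4.07 and 2.02 times the median of all filtered cells, and 8957406, 9609423 and 12470858 UMIs in all. Barcode sequences shared between libraries numbered 26 at most in any pair, and 3 at most among members. Doublet scores put 54, 30 and 25 members among the highest-scoring cells, and they were kept. At least 10 per 10000 of non-epithelial markers was held by 45 (4.16%), 36 (13.3%) and 20 (3.79%) members. Upper follicle and bulge markers (Krt79, Lgr5, Cd34, Krt75 and Postn) summed to at least 2 per 10000 in 385 (35.5%), 69 (25.5%) and 228 (43.2%) members. Of the 7 fibroblast markers 6 passed 10 CPM in each library, with sums of 871, 1065 and 609 CPM in members and 2408, 1918 and 3072 CPM in endothelial cells. None of the 5 endothelial, 5 T cell and 6 macrophage markers passed 10 CPM, with sums of 3.91, 0.937 and 2.49, of 14.1, 4.89 and 1.36 and of 23.3, 24.1 and 6.58 CPM, and Cdh5 and Kdr were at 0 in IMQ. The 5 Langerhans and dendritic markers summed to 394, 119 and 122 CPM, with 4, 2 and 1 past 10 CPM, and the 5 pericyte and smooth muscle markers to 108, 154 and 217 CPM, with 2, 3 and 3. Without the members that held at least 10 per 10000 of non-epithelial markers, 161 of 164 named gene ratios past 2-fold kept 2-fold. So did 23 of 25 list medians. The part of RNA from other cells in the remaining members was not tested. The neutrophil list, which holds S100a8 and S100a9, summed to 88.0, 49252 and 4000.2 CPM, with its receptor gene Csf3r at 0 throughout. Of the 6 upper follicle markers 6, 5 and 4 passed 10 CPM, and they summed to 4812, 2422 and 1331 CPM in members and 405, 108 and 69.7 CPM in the high cells.

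Promoters are printed for 3 genes on which the comparisons turn, Col17a1 for the hemidesmosome, S100a8 for calprotectin and Sprr2d for the largest ratio of IMQ over normal. Each runs from 250 bases before to 50 after the transcription start in RefSeq (GRCm38.p6), 5′ to 3′ on the gene's strand. Capitals mark matches on either strand to AP-1, spelled TGANTCA. They also mark the C/EBP letters, spelled TTGCNNAA, and the TATA box, spelled TATAAA. None of these spellings overlaps another in the windows shown. Col17a1 is at chr19:47691993-47692292 on the minus strand, S100a8 at chr3:90668821-90669120 and Sprr2d at chr3:92338890-92339189 on the plus strand.
Col17a1: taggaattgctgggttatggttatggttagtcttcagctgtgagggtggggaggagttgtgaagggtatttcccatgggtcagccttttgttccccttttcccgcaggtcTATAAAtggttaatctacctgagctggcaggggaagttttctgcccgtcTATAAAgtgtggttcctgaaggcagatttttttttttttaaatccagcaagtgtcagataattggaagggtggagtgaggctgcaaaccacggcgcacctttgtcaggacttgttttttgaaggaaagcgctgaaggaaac
S100a8: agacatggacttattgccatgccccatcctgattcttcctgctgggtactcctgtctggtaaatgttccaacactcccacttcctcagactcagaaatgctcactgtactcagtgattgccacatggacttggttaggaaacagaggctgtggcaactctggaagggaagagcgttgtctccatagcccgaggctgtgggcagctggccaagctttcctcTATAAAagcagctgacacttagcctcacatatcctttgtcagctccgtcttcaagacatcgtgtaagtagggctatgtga
Sprr2d: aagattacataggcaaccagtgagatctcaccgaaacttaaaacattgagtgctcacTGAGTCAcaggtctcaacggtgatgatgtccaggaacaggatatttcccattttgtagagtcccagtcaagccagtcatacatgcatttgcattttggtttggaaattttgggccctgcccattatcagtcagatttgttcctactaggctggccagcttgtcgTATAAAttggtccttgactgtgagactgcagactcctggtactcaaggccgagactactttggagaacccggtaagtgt

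The Sprr2d window held 1 AP-1 match, at position -193 from the start, and a TATA match at -29. That of S100a8 held a TATA match at -30. The Col17a1 window held 2 TATA matches farther from the start. Of 27025 promoters of this length, 7.9% held the AP-1 letters, 10.8% the C/EBP letters and 14.2% the TATA letters. Of the 8 genes with the largest ratios of IMQ over normal, 6 were in the table, 3 of them with the AP-1, 2 with the C/EBP and 4 with the TATA letters. The 8 include Sprr2d, Sprr2b and Sprr2i, members of 1 family that lie near each other on chromosome 3. Their matches may not be independent, so these counts are a description. Of the 8 with the lowest ratios 7 were in the table, 0 with the AP-1, 2 with the C/EBP and 2 with the TATA letters. These are matches of letters, not binding sites.

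IMQ was set against normal to see what imiquimod treatment went with in these keratinocytes. Small proline-rich, stefin, stress keratin and calprotectin genes were higher in IMQ, and Krt15, hemidesmosome, MHC class I and the homeostatic chemokine genes Ccl27a and Cxcl14 were lower. A gene was counted where its mean CPM over the 3 libraries was at least 10 and its CPM ratio passed 2-fold. Of 7018 genes with a ratio, 601 (8.56%) were higher in IMQ and 934 (13.3%) lower. Among the high cells 599 of 6964 (8.6%) were higher and 713 (10.2%) lower. The median log2 ratio over all genes was -0.15 in all members and 0.0015 in the high cells.

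IMQ+celastrol was set against IMQ to see what adding celastrol went with. Krt15, Fcgbp, Il1r2 and hemidesmosome genes were higher in IMQ+celastrol members, and calprotectin, small proline-rich and neutrophil chemokine genes were lower. Of 7019 genes, 470 (6.7%) were higher and 367 (5.23%) lower. Of the genes in the high cells, 298 of 6963 were higher (4.28%) and 289 lower (4.15%). IMQ+celastrol against normal gave 289 of 7019 genes higher (4.12%) and 288 lower (4.1%), and in the high cells 267 higher (3.83%) and 277 lower (3.98%). The median log2 ratio of IMQ+celastrol over IMQ was 0.076 in all members and -0.060 in the high cells. The comparisons share libraries, so each is given by its own values. These shares are the background for the list counts below. A list count near them says nothing particular about the list.

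**Figure D3:**
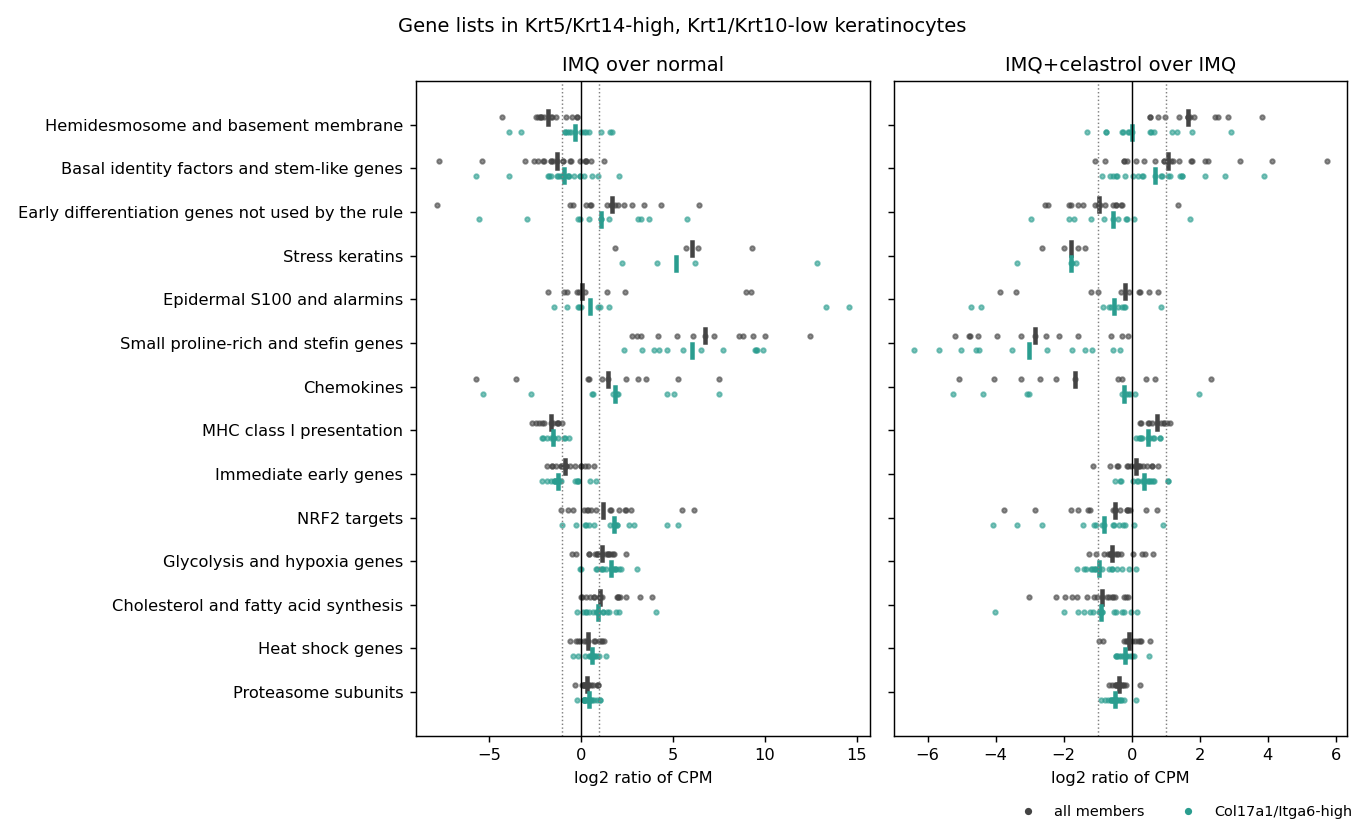
Log2 ratios of CPM for genes of selected lists in IMQ over normal (left) and IMQ+celastrol over IMQ (right), with 1 point per gene at a mean of at least 10 CPM and a bar at the median; dotted lines mark 2-fold, and a library with no UMI enters at 3 UMIs. The hemidesmosome median is -1.80 in all members and -0.30 in the high cells (left), while that of the stress keratins is 6.03 and 5.17.

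Genes that anchor keratinocytes to the basement membrane were lower in IMQ members and higher again in IMQ+celastrol members. Of the hemidesmosome and basement membrane genes, 0 of 14 were higher and 10 lower in IMQ than normal (median log2 ratio -1.80), and 10 of 14 were higher and 0 lower in IMQ+celastrol than IMQ (median 1.65), against background shares of 8.56% higher and 13.3% lower in the former and 6.7% and 5.23% in the latter. Col17a1 stood at 938, 176 and 966 CPM, 5.34-fold lower in IMQ than normal (5.07 to 5.63) and 5.50-fold higher in IMQ+celastrol than IMQ (5.23 to 5.79). Dst, for the plakin dystonin, stood at 327, 65.1 and 379 CPM, 5.02-fold lower in IMQ than normal (4.60 to 5.48). Col7a1, for the collagen of anchoring fibrils, stood at 65.9, 13.9 and 99.7 CPM, 7.15-fold higher in IMQ+celastrol than IMQ (5.98 to 8.61). These 3 genes were low in IMQ and near or above the normal level in IMQ+celastrol.

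Within the high cells 3 of 15 were higher and 2 lower in IMQ than normal (median log2 ratio -0.30), and 4 of 15 were higher and 1 lower in IMQ+celastrol than IMQ (median 0.013). The split used Col17a1 and Itga6, members of this list that were lower in IMQ with most of it, so these counts are fixed in part by the split and are a description. The same holds for the levels of the split genes, 1101, 775 and 1219.7 CPM and 516, 576 and 581 CPM. Lamb3, the β3 chain of laminin-332, stood at 142, 173 and 162 CPM. Lama3 and Itgb1 were also highest in the IMQ high cells. Lama3, the α3 chain, stood at 37.6, 113 and 67.5 CPM, 3.0-fold higher in IMQ than normal (2.5 to 3.60), and Itgb1 at 164, 356 and 209.7 CPM, 2.17-fold higher in IMQ than normal (1.97 to 2.39). Dst stood at 371, 205 and 463 CPM, 1.81-fold lower in IMQ than normal (1.63 to 2.02). Dst, Col7a1, Col4a5 and Col4a6 were the genes past 2-fold higher in IMQ+celastrol than IMQ.

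Krt15 was far lower in IMQ than normal and remained below normal with celastrol. Most basal identity genes past 2-fold were lower in IMQ than normal, and most past it were higher in IMQ+celastrol than IMQ. Of the genes for basal identity and stem-like states, 1 of 21 were higher and 11 lower in IMQ than normal (median log2 ratio -1.27), and 11 of 21 were higher and 1 lower in IMQ+celastrol than IMQ (median 1.06). Krt15 stood at 4502, 21.4 and 1141 CPM, 210.0-fold lower in IMQ than normal (183 to 242) and 53.2-fold higher in IMQ+celastrol than IMQ (46.4 to 61.4). It was still 3.95-fold lower in IMQ+celastrol than normal (3.87 to 4.02). Among high cells Krt15 stood at 5022, 97.4 and 1429.6 CPM, 51.6-fold lower in IMQ than normal (44.6 to 60.0), so cells with hemidesmosome transcripts also held little of it in IMQ. Trp63, the p63 transcription factor that keeps epidermal identity, stood at 390.0, 239.6 and 270.4 CPM in the high cells, 1.63-fold lower in IMQ than normal (1.47 to 1.80).

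Lgr6, an R-spondin receptor gene that marks epidermal stem cells in mice, stood at 48.2, 1.14 and 20.1 CPM, 42.1-fold lower in IMQ than normal (23.3 to 85.0). Igfbp3, for an insulin-like growth factor binding protein, stood at 849, 147 and 651 CPM. Over the high cells the same list gave the following: 1 of 21 were higher and 9 lower in IMQ than normal (median log2 ratio -0.89), and 8 of 21 were higher and 0 lower in IMQ+celastrol than IMQ (median 0.69). Ly6e was the gene that was higher in IMQ, at 67.0, 163 and 138 CPM in all members. Ly6d, the most abundant of these genes in IMQ, stood at 2952, 3475 and 2012 CPM, 1.18-fold higher in IMQ than normal (1.16 to 1.20), short of 2-fold.

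Fcgbp, for an IgG Fc-binding protein, and Dapl1 were among the 8 lowest genes of IMQ over normal. Fcgbp stood at 530.4, 3.02 and 107 CPM, 176-fold lower in IMQ than normal (122 to 263) and 35.6-fold higher in IMQ+celastrol than IMQ (24.7 to 53.4). Dapl1 stood at 425, 11.1 and 66.9 CPM, 38.1-fold lower in IMQ than normal (31.5 to 46.7). Both were intermediate in IMQ+celastrol. The cyclin gene Ccnd2 stood at 176, 21.9 and 152 CPM, 6.95-fold higher in IMQ+celastrol than IMQ (6.03 to 8.06). The Notch ligand gene Jag2 stood at 118, 15.3 and 91.6 CPM, 5.99-fold higher in IMQ+celastrol than IMQ (5.04 to 7.16).

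Although Krt1 and Krt10 were held low by the rule, other differentiation genes were higher in IMQ. Of the early differentiation genes outside the rule, 10 of 16 were higher and 1 lower in IMQ than normal (median log2 ratio 1.69), and 1 of 16 were higher and 7 lower in IMQ+celastrol than IMQ (median -0.96). In high cells, early differentiation genes passed 2-fold upward in IMQ over normal for 7 of 12 and downward for 2 (median 1.09), and in IMQ+celastrol over IMQ upward for 1 of 11 and downward for 4 (median -0.54). Krtdap stood at 434, 4788 and 1764 CPM, 11.03-fold higher in IMQ than normal (10.7 to 11.4). Tgm1, a transglutaminase that cross-links the cornified envelope, stood at 1.45, 125 and 21.5 CPM, 5.80-fold lower in IMQ+celastrol than IMQ (5.07 to 6.64). Grhl3, a transcription factor of barrier formation, stood at 6.81, 142 and 25.6 CPM. All 3 were highest in IMQ, and so it was among high cells, where Krtdap stood at 235, 2045 and 887 CPM and Grhl3 at 4.12, 54.6 and 16.8 CPM. Krt77, a suprabasal keratin, was the gene lower in IMQ, at 143, 0.624 and 1.60 CPM, from 6 UMIs in IMQ and 20 in IMQ+celastrol.

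The keratins of wounds and psoriasis were high in IMQ members, the high cells included, and lower but above normal with celastrol. Of the stress keratins, 4 of 4 were higher and 0 lower in IMQ than normal (median log2 ratio 6.03), and 0 of 4 were higher and 4 lower in IMQ+celastrol than IMQ (median -1.78). In high cells, stress keratins passed 2-fold upward in IMQ over normal for 4 of 4 and downward for 0 (median 5.17), and in IMQ+celastrol over IMQ upward for 0 of 4 and downward for 4 (median -1.78). Krt16 stood at 224, 11649 and 2945 CPM, 51.9-fold higher in IMQ than normal (49.7 to 54.3) and 3.96-fold lower in IMQ+celastrol than IMQ (3.91 to 4.0). It remained 13.1-fold higher in IMQ+celastrol than normal (12.5 to 13.7). Krt6a stood at 77.9, 6375 and 2147 CPM and Krt6b at 10.9, 6909 and 1102 CPM, and reads of this near-identical pair may be divided between them. Krt6b was seen in only 4 of 1083 normal members, so its normal level rests on very few cells. Krt17 had the highest normal level of the 4, at 1555, 5644 and 2196 CPM, and in normal skin it stood at 6366 CPM in the low and 637 CPM in the high cells. Within high cells Krt16 stood at 214, 3759 and 1217 CPM, 17.6-fold higher in IMQ than normal (16.7 to 18.6) and 3.09-fold lower in IMQ+celastrol than IMQ (3.0 to 3.18).

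Calprotectin transcripts showed some of the largest levels in IMQ and were far lower with celastrol. Of the epidermal S100 and alarmin genes, 4 of 10 were higher and 1 lower in IMQ than normal (median log2 ratio 0.048), and 0 of 10 were higher and 3 lower in IMQ+celastrol than IMQ (median -0.20). In high cells, S100 and alarmin genes passed 2-fold upward in IMQ over normal for 4 of 10 and downward for 1 (median 0.49), and in IMQ+celastrol over IMQ upward for 0 of 10 and downward for 2 (median -0.51). S100a8 stood at 45.0, 23081 and 2201 CPM, 513-fold higher in IMQ than normal (465 to 567) and 10.48-fold lower in IMQ+celastrol than IMQ (10.4 to 10.6). Its partner gene S100a9 stood at 42.6, 26165 and 1797 CPM. In normal, only 4 of 1083 members held a UMI of S100a8 and 3 a UMI of S100a9. Nearly all of the S100a8 there lay in 2 low cells. The normal level of S100a8 and the 513-fold ratio thus rest on very few cells, and the interval leaves out this spread between cells. High cells held 0.399, 9859.6 and 459 CPM of S100a8, from 3 UMIs in normal, and it was 21.5-fold lower in IMQ+celastrol than IMQ (20.8 to 22.2). Endothelial cells, which should lack it, held 0.851, 65.0 and 30.7 CPM, far below the IMQ members.

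The alarmin cytokine gene Il33 stood at 88.3, 472 and 205 CPM. S100a10, for an annexin partner, was the S100 gene lower in IMQ, at 2446, 717 and 1232 CPM. S100a6 stood at 3402, 3131 and 3738 CPM, 1.09-fold lower in IMQ than normal (1.07 to 1.10), which is short of 2-fold.

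Antimicrobial genes were higher in IMQ and lower with celastrol, in a list that shares Sprr2d and Sprr1b with the next. Of the antimicrobial genes, 8 of 9 were higher and 0 lower in IMQ than normal (median log2 ratio 6.73), and 0 of 9 were higher and 9 lower in IMQ+celastrol than IMQ (median -2.85). In high cells, antimicrobial genes passed 2-fold upward in IMQ over normal for 5 of 6 and downward for 1 (median 7.49), and in IMQ+celastrol over IMQ upward for 0 of 6 and downward for 5 (median -3.24). Slpi, a protease inhibitor with antimicrobial action, stood at 1.23, 411 and 66.1 CPM, 335-fold higher in IMQ than normal (187 to 671). Defb3, a β-defensin gene, stood at 0.447, 81.7 and 4.09 CPM, and among high cells at 0.266, 1.07 and 0.103 CPM, so its signal lay almost wholly in the low cells. Another β-defensin gene, Defb6, stood at 1663, 879.8 and 377 CPM, with 9924 CPM in the low and 86.7 CPM in the high cells of normal skin. Lcn2, for a siderophore-binding lipocalin, stood at 3.01, 363 and 30.3 CPM, below the 159.9, 2846 and 909 CPM of endothelial cells.

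Every measured small proline-rich and stefin gene was higher in IMQ than normal. Counted out, 13 of 13 were higher and 0 lower in IMQ than normal (median log2 ratio 6.73), and 0 of 13 were higher and 10 lower in IMQ+celastrol than IMQ (median -2.85). In high cells, small proline-rich and stefin genes passed 2-fold upward in IMQ over normal for 12 of 12 and downward for 0 (median 6.03), and in IMQ+celastrol over IMQ upward for 0 of 12 and downward for 10 (median -3.01). Small proline-rich proteins are cross-linked into the cornified envelope, and stefins inhibit cysteine proteases. Sprr2d stood at 0.335, 1879 and 122 CPM, from 3 UMIs in normal, 5611-fold higher in IMQ than normal (1919.8 to 27212) and 15.4-fold lower in IMQ+celastrol than IMQ (14.6 to 16.2). Sprr2i stood at 0, 344 and 9.38 CPM, at least 1027-fold higher in IMQ than normal and 36.7-fold lower in IMQ+celastrol than IMQ (30.5 to 44.5). Members of the Sprr2 and stefin families are so alike in sequence that reads may be divided among them, so single members are uncertain.

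The stefins did not all follow the same course. Stfa3 stood at 462, 4538 and 3738 CPM, 9.82-fold higher in IMQ than normal (9.51 to 10.1) but only 1.21-fold lower in IMQ+celastrol than IMQ (1.20 to 1.23). BC100530, in the same family, stood at 559, 10459.5 and 6806 CPM. Stfa2 stood at 0.335, 222 and 9.78 CPM, 22.7-fold lower in IMQ+celastrol than IMQ (18.9 to 27.5). Gm5416 stood at 0.335, 491 and 78.9 CPM, from 3 UMIs in normal. Among high cells Stfa3 stood at 519.9, 5264 and 4162 CPM, so the IMQ+celastrol cells kept most of the IMQ level there.

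Of the clade B serpins, inhibitors of proteases, 5 of 8 were higher and 0 lower in IMQ than normal (median log2 ratio 4.21), and 0 of 8 were higher and 5 lower in IMQ+celastrol than IMQ (median -1.66). In high cells, serpins passed 2-fold upward in IMQ over normal for 2 of 5 and downward for 1 (median 0.90), and in IMQ+celastrol over IMQ upward for 0 of 5 and downward for 2 (median -0.95). Serpinb3a stood at 0.447, 342 and 15.8 CPM, from 4 UMIs in normal, and its near copies may share its reads. Serpinb5 stood at 546, 754 and 595 CPM, 1.38-fold higher in IMQ than normal (1.33 to 1.43), short of 2-fold. Saa3, an acute-phase serum amyloid gene outside these lists, stood at 0, 757 and 26.8 CPM, at least 2259.5-fold higher in IMQ than normal. Saa3 was also at 1224 CPM in IMQ endothelial cells, at 20.9 CPM in the IMQ high cells, and past 20 per 10000 in 15 IMQ members. The part of RNA from other cells in the levels of Saa3 and Lcn2 was not tested.

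**Figure D4:**
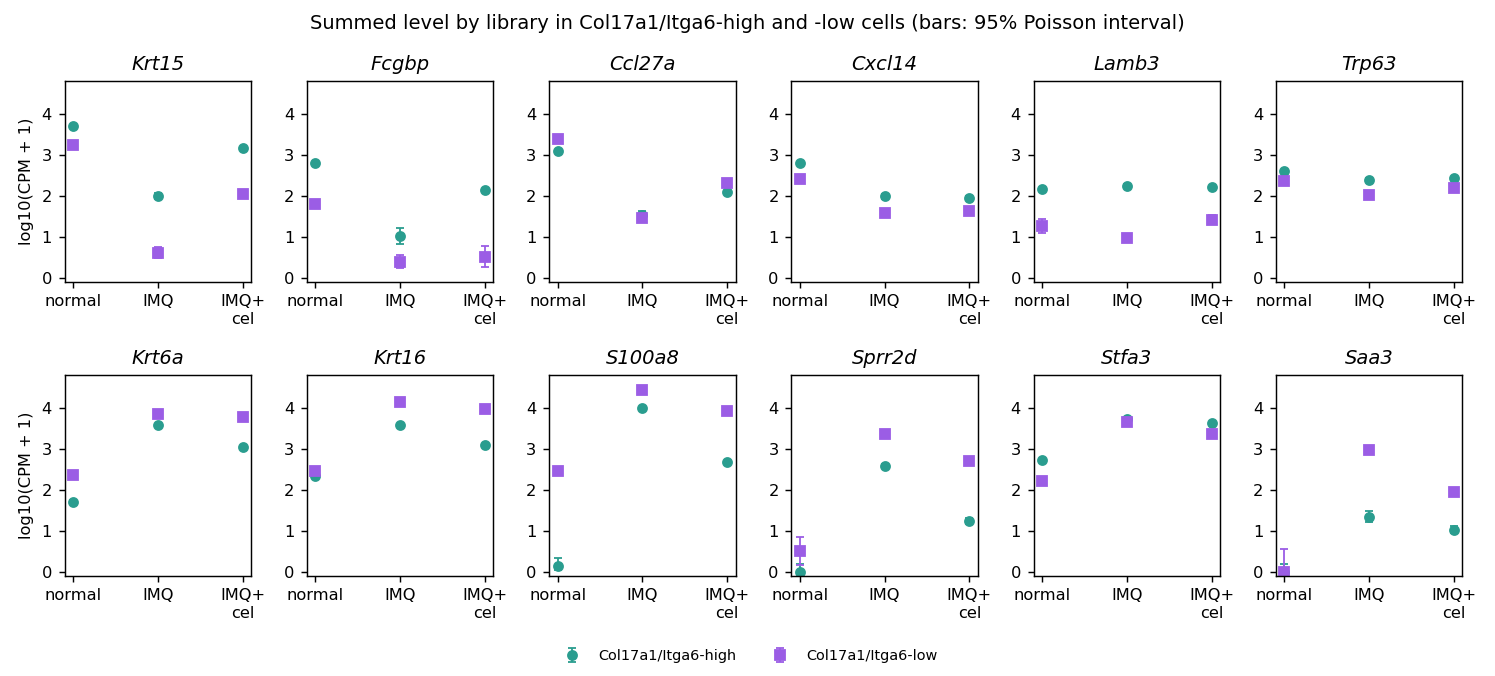
Summed CPM, as log10 of CPM plus 1, of 12 genes in the Col17a1/Itga6-high (circles) and Col17a1/Itga6-low (squares) members of each library, with exact 95% Poisson intervals. Krt15 and Fcgbp are lowest in IMQ in both groups of cells, and S100a8 and Sprr2d are highest there, while Stfa3 stays high in IMQ+celastrol.

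Epidermal IL-36 ligand genes were higher in IMQ, while the decoy receptor gene Il1r2 was lower. Of the IL-1 and IL-36 genes, 5 of 9 were higher and 1 lower in IMQ than normal (median log2 ratio 1.86), and 2 of 9 were higher and 4 lower in IMQ+celastrol than IMQ (median -0.26). The epidermal agonist gene Il36g, which the files list under an older symbol, stood at 4.13, 119 and 41.1 CPM. Il36a stood at 0, 40.6 and 1.04 CPM, at least 121-fold higher in IMQ than normal and 38.9-fold lower in IMQ+celastrol than IMQ (22.5 to 73.8). Il1r2, a decoy receptor that binds IL-1, ran the other way, at 176, 12.8 and 94.4 CPM, 13.8-fold lower in IMQ than normal (11.45 to 16.7) and 7.37-fold higher in IMQ+celastrol than IMQ (6.12 to 8.95). The receptor antagonist gene Il1rn stood at 58.9, 215 and 58.5 CPM in all members and at 67.3, 82.4 and 55.6 CPM in the high cells. In high cells, IL-1 and IL-36 genes passed 2-fold upward in IMQ over normal for 2 of 7 and downward for 3 (median -0.75), and in IMQ+celastrol over IMQ upward for 1 of 7 and downward for 0 (median 0.42).

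The IL-17 and IL-22 list held receptors, ligands of the IL-20 group and feedback genes. Here 2 of 11 were higher and 4 lower in IMQ than normal (median log2 ratio 0.37), and 2 of 11 were higher and 1 lower in IMQ+celastrol than IMQ (median 0.27). In high cells, genes of this list passed 2-fold upward in IMQ over normal for 2 of 11 and downward for 3 (median 0.017), and in IMQ+celastrol over IMQ upward for 3 of 11 and downward for 2 (median 0.45). Background shares in the high cells were 8.6% higher and 10.2% lower, then 4.28% and 4.15%. The ligand gene Il19 stood at 0.112, 66.4 and 15.7 CPM in all members and at 0.133, 157 and 18.3 CPM in the high cells, with 1 UMI in normal. Il20ra, a receptor subunit for these ligands, stood at 39.5, 0.937 and 7.86 CPM, 42.2-fold lower in IMQ than normal (22.0 to 93.04). The feedback inhibitor gene Socs3 stood at 535, 189 and 369.7 CPM, 2.83-fold lower in IMQ than normal (2.68 to 2.99). Among IMQ members Il19 and Il24 were higher than normal, and Il17re, Il20ra, Il20rb and Socs3 lower.

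The homeostatic chemokine genes Ccl27a and Cxcl14 were lower in IMQ, and neutrophil chemokine genes were higher. Cxcl10, Cxcl12, Ccl7 and Ccl20 were also past 2-fold higher in IMQ members. Of the chemokine genes, 7 of 11 were higher and 2 lower in IMQ than normal (median log2 ratio 1.48), and 1 of 11 were higher and 6 lower in IMQ+celastrol than IMQ (median -1.66). In high cells, chemokines passed 2-fold upward in IMQ over normal for 6 of 10 and downward for 2 (median 1.85), and in IMQ+celastrol over IMQ upward for 1 of 10 and downward for 4 (median -0.23). Ccl27a, which attracts T cells to skin, stood at 1453, 28.2 and 142 CPM, 51.5-fold lower in IMQ than normal (45.7 to 58.3), and it was 10.2-fold lower in IMQ+celastrol than normal (9.74 to 10.8). Cxcl14, a chemokine of resting epidermis, stood at 562, 48.4 and 78.5 CPM, 11.6-fold lower in IMQ than normal (10.6 to 12.8). Neutrophil attractants ran the other way. Cxcl2 stood at 10.8, 428 and 25.7 CPM, 39.5-fold higher in IMQ than normal (32.3 to 48.8) and 16.6-fold lower in IMQ+celastrol than IMQ (14.8 to 18.7), and Cxcl3 at 0, 62.1 and 1.84 CPM. Ccl20, a ligand of CCR6 on IL-17 T cells, stood at 33.3, 182 and 19.2 CPM, and within high cells at 27.5, 43.3 and 5.13 CPM, 1.57-fold higher in IMQ than normal (1.20 to 2.05).

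Of the other secreted and adhesion genes, 7 of 9 were higher and 0 lower in IMQ than normal (median log2 ratio 1.98), and 1 of 9 were higher and 5 lower in IMQ+celastrol than IMQ (median -1.33). In high cells, these secreted and adhesion genes passed 2-fold upward in IMQ over normal for 7 of 11 and downward for 0 (median 2.70), and in IMQ+celastrol over IMQ upward for 0 of 11 and downward for 6 (median -1.12). Csf3, for the granulocyte growth factor, stood at 0.112, 45.2 and 6.74 CPM, with 1 UMI in normal, and within high cells at 0.133, 166 and 2.77 CPM, 59.8-fold lower in IMQ+celastrol than IMQ (40.3 to 92.3). Tslp, an epithelial cytokine gene, stood at 34.96, 420.4 and 85.4 CPM in the high cells, 12.03-fold higher in IMQ than normal (10.4 to 13.9). In IMQ both were higher in the high than in the low cells, where they stood at 16.02 and 52.1 CPM. Plau, for urokinase, stood at 4.13, 46.3 and 11.1 CPM.

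Of the ligand genes of the EGF receptor, which drives keratinocyte growth, 4 of 8 were higher and 0 lower in IMQ than normal (median log2 ratio 0.87), and 0 of 8 were higher and 4 lower in IMQ+celastrol than IMQ (median -0.96). In high cells, EGF receptor ligands passed 2-fold upward in IMQ over normal for 3 of 8 and downward for 0 (median 0.27), and in IMQ+celastrol over IMQ upward for 0 of 8 and downward for 3 (median -0.43). Ereg, for epiregulin, stood at 0.447, 393 and 35.4 CPM, 11.1-fold lower in IMQ+celastrol than IMQ (10.03 to 12.2). Areg, for amphiregulin, stood at 41.9, 897 and 284 CPM, 21.4-fold higher in IMQ than normal (19.3 to 23.8). Hbegf stood at 239, 567 and 277 CPM in all members but at 259, 238 and 273 CPM in the high cells, with no 2-fold difference there.

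Of the immediate early genes, which also respond to the handling of tissue, 0 of 18 were higher and 6 lower in IMQ than normal (median log2 ratio -0.84), and 0 of 18 were higher and 1 lower in IMQ+celastrol than IMQ (median 0.14). In high cells, immediate early genes passed 2-fold upward in IMQ over normal for 0 of 18 and downward for 12 (median -1.22), and in IMQ+celastrol over IMQ upward for 2 of 18 and downward for 0 (median 0.37). The background share lower in IMQ there was 10.2%. Atf3 stood at 3325, 933 and 1593 CPM, 3.56-fold lower in IMQ than normal (3.48 to 3.65). Fos stood at 3236, 1668 and 1645 CPM, and Junb at 2308, 1331 and 1452 CPM. Of the NF-kB genes, 2 of 10 were higher and 1 lower in IMQ than normal (median log2 ratio 0.13), and 0 of 10 were higher and 0 lower in IMQ+celastrol than IMQ (median -0.20). In high cells, NF-kB genes passed 2-fold upward in IMQ over normal for 2 of 10 and downward for 1 (median 0.22), and in IMQ+celastrol over IMQ upward for 0 of 10 and downward for 0 (median -0.25). All genes of the high cells gave 8.6% higher and 10.2% lower, then 4.28% and 4.15%. The NF-kB inhibitor gene Nfkbia stood at 1782, 1522 and 2121 CPM.

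Genes of antigen presentation were lower in IMQ than normal. Of the MHC class I presentation genes, 0 of 11 were higher and 11 lower in IMQ than normal (median log2 ratio -1.63), and 2 of 11 were higher and 0 lower in IMQ+celastrol than IMQ (median 0.75). B2m, the light chain common to class I molecules, stood at 1349, 467 and 711 CPM, 2.89-fold lower in IMQ than normal (2.79 to 2.99), and it was 1.90-fold lower in IMQ+celastrol than normal (1.85 to 1.95). High cells held 1379, 486 and 768 CPM. In high cells, class I presentation genes passed 2-fold upward in IMQ over normal for 0 of 11 and downward for 8 (median -1.50), and in IMQ+celastrol over IMQ upward for 0 of 11 and downward for 0 (median 0.47). H2-D1 stood at 1286, 536 and 746 CPM and H2-Q4 at 104, 19.6 and 40.3 CPM, though H2 genes share sequence and may share reads. Endothelial cells held 2281, 1995 and 2131 CPM of B2m. Of the interferon-stimulated genes, 0 of 7 were higher and 3 lower in IMQ than normal (median log2 ratio -0.95), and 1 of 7 were higher and 0 lower in IMQ+celastrol than IMQ (median 0.55), with Ifi27 at 255, 56.1 and 119.9 CPM. In high cells, interferon-stimulated genes passed 2-fold upward in IMQ over normal for 0 of 7 and downward for 3 (median -0.63), and in IMQ+celastrol over IMQ upward for 2 of 7 and downward for 0 (median 0.33).

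Glycolysis and sterol synthesis genes were higher in IMQ than normal. Of the glycolysis and hypoxia genes, 9 of 17 were higher and 0 lower in IMQ than normal (median log2 ratio 1.16), and 0 of 17 were higher and 2 lower in IMQ+celastrol than IMQ (median -0.58). Within high cells 13 of 17 were higher and 0 lower in IMQ than normal (median log2 ratio 1.63), and 0 of 17 were higher and 8 lower in IMQ+celastrol than IMQ (median -0.96). Gapdh stood at 881, 3308 and 1572 CPM in the high cells, 2.10-fold lower in IMQ+celastrol than IMQ (2.04 to 2.17), and Ldha at 427, 1529 and 604 CPM, 2.53-fold lower in IMQ+celastrol than IMQ (2.42 to 2.65). Of the cholesterol and fatty acid synthesis genes, 10 of 17 were higher and 0 lower in IMQ than normal (median log2 ratio 1.06), and 0 of 17 were higher and 8 lower in IMQ+celastrol than IMQ (median -0.87). In high cells, sterol and fatty acid genes passed 2-fold upward in IMQ over normal for 7 of 16 and downward for 0 (median 0.92), and in IMQ+celastrol over IMQ upward for 0 of 16 and downward for 6 (median -0.89). Fdps, for farnesyl diphosphate synthase, stood at 101, 410.3 and 106 CPM. Scd2, a desaturase gene, stood at 17.6, 256 and 31.5 CPM, 14.5-fold higher in IMQ than normal (12.4 to 17.2) and 8.12-fold lower in IMQ+celastrol than IMQ (7.30 to 9.06).

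Of the NRF2 targets, antioxidant genes, 8 of 16 were higher and 1 lower in IMQ than normal (median log2 ratio 1.22), and 0 of 16 were higher and 6 lower in IMQ+celastrol than IMQ (median -0.49). In high cells, NRF2 targets passed 2-fold upward in IMQ over normal for 9 of 15 and downward for 1 (median 1.79), and in IMQ+celastrol over IMQ upward for 0 of 15 and downward for 6 (median -0.82). Gsta4, a glutathione transferase gene, stood at 21.9, 983 and 138 CPM, 44.9-fold higher in IMQ than normal (39.0 to 52.0). Slc7a11, for the cystine importer, stood at 1.56, 114 and 8.50 CPM. Both were highest in IMQ. Txnip, for the thioredoxin-interacting protein, was among the 8 lowest genes of IMQ over normal, at 349, 25.6 and 30.7 CPM, and 1.20-fold higher in IMQ+celastrol than IMQ (1.02 to 1.41). Of the metallothioneins, 0 of 3 were higher and 3 lower in IMQ than normal (median log2 ratio -1.59), and 1 of 3 were higher and 0 lower in IMQ+celastrol than IMQ (median 0.99), with Mt4 at 132, 8.33 and 37.0 CPM and Mt1 at 5469, 1818 and 3465 CPM. In high cells, metallothioneins passed 2-fold upward in IMQ over normal for 0 of 3 and downward for 1 (median -0.76), and in IMQ+celastrol over IMQ upward for 1 of 3 and downward for 0 (median 0.08).

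Celastrol has been reported to act on HSP90 and the proteasome, so lists of protein quality control are given. Of the heat shock genes, 3 of 13 were higher and 0 lower in IMQ than normal (median log2 ratio 0.39), and 0 of 13 were higher and 0 lower in IMQ+celastrol than IMQ (median -0.079). In high cells, heat shock genes passed 2-fold upward in IMQ over normal for 1 of 13 and downward for 0 (median 0.62), and in IMQ+celastrol over IMQ upward for 0 of 13 and downward for 0 (median -0.20). The shares over all genes there were 8.6% higher and 10.2% lower, then 4.28% and 4.15%. Hspa1a, an inducible chaperone gene, stood at 202, 456 and 232 CPM, Hspa1b at 286, 692 and 384 CPM, and their constitutive relative Hspa8 at 1049.5, 1774 and 1568 CPM. Of the unfolded protein and integrated stress genes, 1 of 13 were higher and 0 lower in IMQ than normal (median log2 ratio 0.10), and 0 of 13 were higher and 0 lower in IMQ+celastrol than IMQ (median -0.26). In high cells, unfolded protein genes passed 2-fold upward in IMQ over normal for 2 of 13 and downward for 0 (median 0.16), and in IMQ+celastrol over IMQ upward for 0 of 13 and downward for 0 (median -0.28). Of the proteasome genes, 0 of 20 were higher and 0 lower in IMQ than normal (median log2 ratio 0.32), and 0 of 20 were higher and 0 lower in IMQ+celastrol than IMQ (median -0.38). In high cells, proteasome genes passed 2-fold upward in IMQ over normal for 2 of 20 and downward for 0 (median 0.43), and in IMQ+celastrol over IMQ upward for 0 of 20 and downward for 0 (median -0.49). Ribosomal protein genes gave medians of -0.37 and 0.46 in the same comparisons, and mitochondrially encoded genes -0.17 and 0.70.

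Of the cell cycle genes outside the rule, 4 of 18 were higher and 2 lower in IMQ than normal (median log2 ratio -0.0042), and 4 of 18 were higher and 2 lower in IMQ+celastrol than IMQ (median 0.30). Birc5, which acts in chromosome segregation, stood at 13.1, 27.4 and 8.90 CPM, against 490.0, 237 and 209 CPM in the cells removed by the Mki67 and Top2a limit. That limit, set in UMIs whatever the depth, removed 18.7%, 55.5% and 42.6% of the cells that reached it. The counts of this list are thus fixed in part by the rule, unevenly between libraries, and are a description. The inhibitor gene Cdkn1b stood at 40.2, 13.9 and 30.6 CPM. Within high cells 8 of 18 were higher and 2 lower in IMQ than normal (median log2 ratio 0.40), and 2 of 18 were higher and 5 lower in IMQ+celastrol than IMQ (median -0.35), and the replication genes Mcm2, Mcm3 and Mcm5 were among the higher ones in IMQ.

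Of the connexins, 2 of 6 were higher and 1 lower in IMQ than normal (median log2 ratio 0.49), and 0 of 6 were higher and 2 lower in IMQ+celastrol than IMQ (median -0.11). In high cells, connexins passed 2-fold upward in IMQ over normal for 3 of 5 and downward for 1 (median 1.12), and in IMQ+celastrol over IMQ upward for 0 of 5 and downward for 2 (median -0.35). Gjb2, for connexin 26, stood at 15.96, 1056 and 193 CPM, 66.1-fold higher in IMQ than normal (56.1 to 78.6), and Gja1, for connexin 43, at 224, 445 and 392 CPM. Of the desmosome and adherens junction genes, 2 of 13 were higher and 1 lower in IMQ than normal (median log2 ratio 0.41), and 1 of 13 were higher and 1 lower in IMQ+celastrol than IMQ (median -0.25). In high cells, desmosome and adherens junction genes passed 2-fold upward in IMQ over normal for 1 of 13 and downward for 1 (median 0.32), and in IMQ+celastrol over IMQ upward for 0 of 13 and downward for 1 (median -0.29). Over all genes in the high cells the shares were 8.6% higher and 10.2% lower, then 4.28% and 4.15%, so these counts were near background. Of the genes of keratinocyte migration, 3 of 12 were higher and 3 lower in IMQ than normal (median log2 ratio -0.0024), and 1 of 12 were higher and 1 lower in IMQ+celastrol than IMQ (median 0.34). In high cells, migration genes passed 2-fold upward in IMQ over normal for 4 of 12 and downward for 1 (median 0.39), and in IMQ+celastrol over IMQ upward for 1 of 12 and downward for 4 (median -0.30). The fibronectin receptor gene Itga5 stood at 3.99, 19.3 and 9.03 CPM in the high cells.

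Lrp1, the endocytic receptor gene in the study's title, stood at 38.5, 66.5 and 29.4 CPM, 1.73-fold higher in IMQ than normal (1.51 to 1.97) and 2.26-fold lower in IMQ+celastrol than IMQ (1.98 to 2.58). High cells held 40.1, 37.4 and 29.4 CPM, 1.07-fold lower in IMQ than normal (0.824 to 1.41) and 1.28-fold lower in IMQ+celastrol than IMQ (0.968 to 1.66), and these intervals include no difference. Thinned to 2000 UMIs, Lrp1 was seen in 7.32, 6.91 and 4.85% of members and 4.84, 6.61 and 7.46% of endothelial cells. Of the genes for LRP1 and related receptors, 0 of 7 were higher and 1 lower in IMQ than normal (median log2 ratio -0.63), and 1 of 7 were higher and 1 lower in IMQ+celastrol than IMQ (median 0.30). In high cells, LRP1-related receptors passed 2-fold upward in IMQ over normal for 0 of 7 and downward for 1 (median -0.38), and in IMQ+celastrol over IMQ upward for 1 of 7 and downward for 0 (median 0.042). Among all genes in the high cells 8.6% were higher and 10.2% lower, then 4.28% and 4.15%. Lrp4 stood at 52.8, 3.43 and 27.3 CPM, 15.4-fold lower in IMQ than normal (10.8 to 22.6). Of the Toll-like receptor and adaptor genes, 0 of 3 were higher and 0 lower in IMQ than normal (median log2 ratio 0.37), and 0 of 3 were higher and 0 lower in IMQ+celastrol than IMQ (median -0.16), with the adaptor gene Myd88 at 29.5, 48.4 and 31.4 CPM. In high cells, Toll-like receptor genes passed 2-fold upward in IMQ over normal for 0 of 3 and downward for 0 (median 0.28), and in IMQ+celastrol over IMQ upward for 0 of 3 and downward for 0 (median -0.19).

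The largest ratio of IMQ+celastrol over IMQ was that of Hbb-bs, a β-globin gene of red blood cells, at 1.34, 3.02 and 229 CPM. It stood at 982 CPM in the low and 17.6 CPM in the high cells of IMQ+celastrol, and at 23.9 CPM in endothelial cells of that library. The part of red blood cell RNA in its level was not tested.

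Members varied among themselves in different genes in each library. After thinning to 2000 UMIs, the variance over the mean (Fano factor) was highest for Cst6, Defb6 and Fabp5 in normal, at 128, 42.7 and 23.3, against a median of 1.21 over 476 genes. Krt79, of the upper follicle, was also among the 10 highest and stood at 58.8 CPM in the high and 5218 CPM in the low cells there. In IMQ the highest were S100a9 (39.3), S100a8 (33.7) and Saa3 (26.4), and in IMQ+celastrol Cst6 (126), S100a8 (56.5) and Fabp5 (54.8). Others among the 10 highest were Krt17 and Apoe in normal, Col3a1, a fibroblast collagen, in IMQ, and Krt6b, Krt16 and Sprr1b in IMQ+celastrol.

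Cells that met the rest of the rule but not 1 limit are given beside the members. Those with Krt1 and Krt10 at 20 per 10000 or more (202, 290 and 326 cells) held 761, 8.68 and 163 CPM of Col17a1, 862, 14814 and 12324 CPM of Krt16 and 0, 20570.3 and 4819.9 CPM of S100a8. Those with 2 or more UMIs of Mki67 and Top2a (232, 334 and 396 cells) held 649, 439 and 753 CPM of Col17a1, 90.3, 2875 and 2127 CPM of Krt16 and 0, 11099 and 1983 CPM of S100a8. The IMQ members lay between these groups for Col17a1, at 176 CPM, and for Krt16, at 11649 CPM, but above both for S100a8, at 23081 CPM. B2m stood at 1122, 488 and 489 CPM in the former and 1389, 406 and 589 CPM in the latter, lower in IMQ than normal in both.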

How the data were processed

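Counts of UMIs per gene and cell barcode were deposited by the authors, and per the file headers Cell Ranger 4.0.0 wrote them. The submitters' processing notes name the builds mm10 and GRCm38. How reads were aligned and cells called is not given in the sources used here. Cells were filtered and members taken by the rule above, and UMIs of members were summed per library and divided by their total. Intervals are exact (Poisson for CPM, conditional binomial for ratios, Clopper-Pearson for shares). The ratio code was run on counts drawn from Poisson distributions, which checks the computation and not the spread between cells or animals. A library without a UMI entered a ratio at a floor of 3 UMIs, per library. Doublets were scored with Scrublet in scanpy 1.11.5, and the highest-scoring 8.34%, 6.41% and 5.14% of cells were left out only as an alternative, since its own threshold marked 182, 0 and 92 cells. Other tools were Python 3.11.15, numpy 2.4.6, pandas 2.3.3, scipy 1.17.1 and matplotlib 3.10.9. Promoters are from RefSeq.

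Genes were named by rules of size: the 8 highest and 8 lowest ratios of each comparison at a mean of 50 CPM or more, and in each list the 2 highest members and the 2 of largest ratio. Genes outside these rules that the text names were chosen after their values were seen. The members, the 33 gene lists and the marker lists were chosen with earlier results of these data known. Some items of the lists are counted in them but not reported here.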

Additional observations from a re-analysis of the deposited data

Results flagged for a closer look

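Serpinb2, a clade B serpin gene, was lower in IMQ than normal in the Col17a1/Itga6-high members (log2 ratio -1.43, from 983 to 365 CPM) and higher in the low members (log2 ratio 2.75, from 78.1 to 523 CPM). Il1r2 was higher in IMQ+celastrol than IMQ in the high members (log2 ratio 3.1, from 13.9 to 119 CPM) and lower in the low members (-1.01, from 12.5 to 6.23 CPM). Mt4 was higher in IMQ+celastrol in the high members (log2 ratio 4.85, from 1.61 to 46.4 CPM) and lower in the low members (-1.44, from 9.95 to 3.67 CPM), with 3 UMIs in the IMQ high members. All 3 stand out because the ratios in the 2 groups of cells lay in opposite directions past 2-fold. The low cells differed in make-up between libraries. They were mostly Krt79-high in normal and mostly Krt6a/Krt16-high in IMQ. In IMQ+celastrol 42 of 112 were Krt79-high and 48 Krt6a/Krt16-high. Ratios in the low cells thus set unlike cells against each other. The difference between the high and low cells was not tested.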

How the results depend on the processing

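No paired analysis was possible because each group had 1 library and the labels give no replicate numbers. The share of members in normal, IMQ and IMQ+celastrol was 8.89%, 2.56% and 6.68% with Krt1 and Krt10 under 5 per 10000, 6.69%, 2.52% and 4.67% with upper follicle and bulge cells left out, and 8.67%, 0.737% and 6.48% with the Col17a1 and Itga6 split. It was 8.11% in normal and 2.89% in IMQ with Krt5 and Krt14 at 100 per 10000, 11.3% in normal with a higher minimum of genes per cell, and 2.94% in IMQ without cells of other markers. With the limits on cycling and Ptprc per 10000 it was 4.47% in IMQ and 9.42% in IMQ+celastrol. The IMQ share was the lowest throughout.

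Counts of genes higher and lower in IMQ, then higher and lower in IMQ+celastrol over IMQ, were 230, 230, 122 and 126 at a mean of 50 CPM, 1229, 2199, 1055 and 933 at 1 CPM, 1069, 1886, 1212 and 725 at 1.5-fold, and 248, 250, 102 and 108 at 4-fold. Thinned to 2000 UMIs, 721 were higher and 631 lower in IMQ+celastrol over IMQ. The Col17a1 and Itga6 split left 298 higher there.

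Krt77 in IMQ+celastrol over IMQ turned to -1.16 at Krt5 and Krt14 of 100 per 10000 and to -0.35 without upper follicle cells, from 20 UMIs or fewer. Under the Col17a1 and Itga6 split, which leaves fewer cells, the IL-1 and IL-36 median of IMQ over normal turned to -0.75, Itga6 to 0.16 and Hbegf to -0.12, and in IMQ+celastrol over IMQ Defb6 turned to 0.29, Hbegf to 0.20, Itga2 to -0.23 and Plat to 0.069. Of the 161 named gene ratios past 2-fold that could be had under it, 132 kept 2-fold and 155 their sign. Of the 25 list medians past 2-fold, 13 kept 2-fold and 24 their sign. Without cells that hold transcripts of other types, 161 of 164 kept 2-fold. The cause was not tested.

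The IMQ high cells are limited by their number, since 59 cells give their levels, and ratios against 3 UMIs or fewer have wide intervals.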
